A study of Mus musculus with 6 samples.

Results

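The proteasome is the protease that degrades ubiquitin-tagged proteins. Its barrel, the 20S core, is built from rings of alpha and beta subunits, of which Psmb5, Psmb6 and Psmb7 carry the cutting sites, and the 19S cap on either end recognises, unfolds and feeds in the tagged protein. Interferon replaces the cutting subunits by Psmb8, Psmb9 and Psmb10, which form the immunoproteasome and shape the peptides that MHC class I presents. In skeletal muscle the proteasome receives its substrates from ubiquitin ligases such as Fbxo32 and Trim63, and it carries much of the protein breakdown of atrophy.

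The genes described here are the proteasome subunits and their regulators, taken as the protein-coding mouse genes whose symbol begins with Psma, Psmb, Psmc, Psmd, Psme, Psmf or Psmg followed by a digit and whose mean value over the libraries was at least 1. There were 50 such genes among 20311 genes of that mean and 26294 genes in the table. Of 52 symbols of the pattern, the pseudogene Psmb6-ps was listed at 0 and the pseudogene Psmb7-ps2 had a mean of 0.223, and neither was a member. By role, the members were 7 alpha subunits, 7 constitutive beta subunits, 2 tissue-restricted core subunits, 5 genes of the immunoproteasome and its activator, 6 ATPases and 11 other subunits of the cap, 3 other activators or inhibitors and 7 assembly chaperones. The last 2 were Psme2b, a near copy of Psme2, and Psmc3ip, a recombination factor that shares the symbol but is no part of the proteasome.

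RNA was measured by sequencing in calf muscle of male C57BL/6 mice aged 24 to 26 months, on regular diet (RD), on high-fat diet (HF) or on high-fat diet with 0.1% nobiletin, a citrus flavonoid that activates the nuclear receptors ROR alpha and gamma (HF.NOB). Muscle was taken 6 hours (ZT6) or 18 hours (ZT18) after the lights came on, which gave 6 conditions with 1 library each, and neither the labels nor the methods say whether a library held 1 animal or several, although a heat map legend of the study gives a replicate number above 1 for the sequencing. Calf muscle mixes gastrocnemius and soleus. The libraries held 23248663 to 31837501 reads, and the deposited values were read counts scaled by 1 factor per library. All differences below compare single libraries, so they have no replicate error, and the intervals given are 95% exact intervals of the ratio of the counts that reflect the number of reads alone. Copies made by PCR could not be recognised, so reads need not be separate molecules.

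The tissue label fitted the skeletal muscle markers, whose summed value was 3529470 to 4537710 with none at 0. Other cell types differed between libraries: leukocyte markers summed to 6472 in ZT18_HF.NOB and to 12533 in ZT6_HF.NOB, red blood cell genes ranged from 1575 in ZT6_HF to 14519 in ZT6_HF.NOB, adipocyte markers from 3908 in ZT18_RD to 13825 in ZT6_HF.NOB, and liver genes reached 1334 in ZT18_HF against at most 12.002 elsewhere. The library ZT6_HF.NOB stood apart in another way, since its fold against ZT6_HF fell with transcript length (Spearman rho = -0.75 across 10006 protein-coding genes, as a description, since genes share a library). The same relation was -0.73 against ZT6_RD and 0.08 for HF.NOB against HF at ZT18. Proteasome transcripts are short, with a median length of 1895 bases against 2870 over all genes tested. Results that rest on this library are therefore given as measured. The main ones are also given after the typical fold at that transcript length (the length trend) was subtracted. Where no such value is given, the result is as measured only and may carry the length trend.

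Promoters of 4 members are shown because the results turn on these genes: Psmb5 and its interferon-induced replacement Psmb8, and the cap subunits Psmd4 and Psmd8. RefSeq windows (GRCm38.p6) from 250 bases before to 50 after the start were found for 42 of the 50 members. Searched on both strands were CCAAT (the NF-Y box), TGACNNNGC (the core of the antioxidant response element), GAAANNGAA (the core of the interferon-stimulated response element), TTCNNNGAA (the gamma-interferon activation site), CACGTG (the E-box) and AGGTCA (the half-site bound by ROR), and every match is in capitals. The windows are chr14:54617946-54618245 on the minus strand for Psmb5, chr17:34197945-34198244 on the plus strand for Psmb8, chr3:95042565-95042864 on the minus strand for Psmd4 and chr7:29180624-29180923 on the minus strand for Psmd8.
Psmb5: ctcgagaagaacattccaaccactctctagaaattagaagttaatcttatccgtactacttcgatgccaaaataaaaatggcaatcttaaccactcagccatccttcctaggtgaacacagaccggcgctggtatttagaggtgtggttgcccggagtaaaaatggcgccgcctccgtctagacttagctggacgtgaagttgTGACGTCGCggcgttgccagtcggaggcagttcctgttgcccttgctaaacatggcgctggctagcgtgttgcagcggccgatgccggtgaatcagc
Psmb8: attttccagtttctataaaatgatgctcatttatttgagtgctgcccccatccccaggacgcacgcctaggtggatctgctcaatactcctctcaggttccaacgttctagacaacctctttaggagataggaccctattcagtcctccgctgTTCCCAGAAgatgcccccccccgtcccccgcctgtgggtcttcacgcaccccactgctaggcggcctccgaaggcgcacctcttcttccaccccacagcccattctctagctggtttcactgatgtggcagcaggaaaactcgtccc
Psmd4: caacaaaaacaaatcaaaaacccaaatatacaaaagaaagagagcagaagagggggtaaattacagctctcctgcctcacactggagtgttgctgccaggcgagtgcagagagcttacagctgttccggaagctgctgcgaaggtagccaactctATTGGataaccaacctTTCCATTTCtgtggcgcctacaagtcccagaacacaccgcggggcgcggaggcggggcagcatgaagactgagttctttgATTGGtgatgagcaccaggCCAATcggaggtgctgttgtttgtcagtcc
Psmd8: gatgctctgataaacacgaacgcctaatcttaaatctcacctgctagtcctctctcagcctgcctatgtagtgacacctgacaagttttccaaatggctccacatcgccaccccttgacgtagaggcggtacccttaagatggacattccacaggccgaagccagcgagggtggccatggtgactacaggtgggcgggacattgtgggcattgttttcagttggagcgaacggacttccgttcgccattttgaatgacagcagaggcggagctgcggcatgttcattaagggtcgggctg

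The Psmb5 window held 1 antioxidant response element core, starting 47 bases before the start of the gene, and the Psmb8 window held 1 gamma-interferon activation site, starting 97 bases before it. The Psmd4 window held CCAAT at 3 places and a match to the interferon element core, and the Psmd8 window held none of the 6 motifs. Over the members with a window, CCAAT was found in 15 genes (35.7%) against 37.4% of all 32851 windows, the antioxidant core in 6 (14.3%) against 12.4%, the interferon element core in 7 (16.7%) against 8.56%, the gamma-interferon site in 3 (7.14%) against 8.30%, the E-box in 4 (9.52%) against 7.15% and the ROR half-site in 10 (23.8%) against 16.3%. Psmb3, Psmb4, Psmc2, Psmd4, Psmd9, Psme1 and Psmg4 held the interferon core, and of the immunoproteasome genes only Psme1 was among these 7. Member shares count genes with a match in any of their windows, whereas the background counts single windows, and 3 members had more than 1 window. For Psmc2 the interferon core and the ROR half-site lay in another window than its CCAAT. A match is a run of letters and not a bound site.

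Levels were compared between genes per kilobase of the longest transcript. Averaged over the 6 libraries, Psmd8 (3685 per kb), a subunit of the cap's lid, Psmb6 (3557 per kb), Psmc3 (3404 per kb), Psmd2 (3306 per kb), the scaffold that docks ubiquitin carriers, and Psmb5 (3281 per kb) were the highest. Without ZT6_HF.NOB the same 5 genes led in another order, with Psmd8 at 3400 per kb, Psmd2 at 3294, Psmb6 at 3156, Psmc3 at 3102 and Psmb5 at 2914. The induced subunits were far lower, at 116 per kb for Psmb8, 44.8 per kb for Psmb9 and 247 per kb for Psmb10. Assembly chaperones lay between 62.7 (Psmg3) and 375 per kb (Psmg2), and the thymus subunit Psmb11 was at 3.29 per kb. Psma8, the testis subunit, had at most 2 reads in any library, and no fold is given for it. Outside ZT6_HF.NOB the members varied little, since over the other 5 libraries the median coefficient of variation was 6.11% and 40 of the 50 members were under 10%. The least variable was the core subunit Psmb2 (1.82%), and among members with a mean of at least 50 the most variable was Psmb8 (19.9%).

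**Figure D1:**
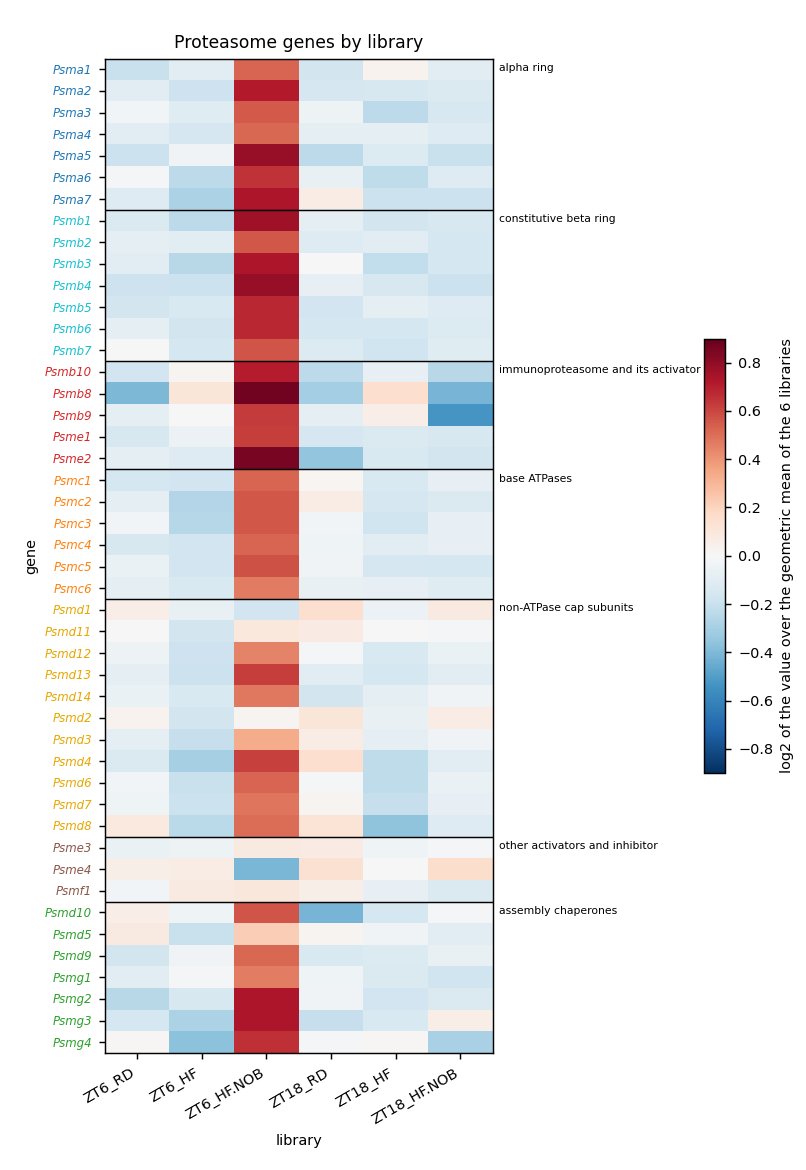
Each row is 1 of the 46 members with a mean value of at least 50, ordered and coloured by role, and each column is 1 library. The colour gives the log2 of the value over the geometric mean of the 6 libraries. The column ZT6_HF.NOB is red for nearly all rows, Psme4 and Psmd1 are its blue exceptions, and Psmb8 is blue in both RD libraries and in ZT18_HF.NOB.

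The first comparison asks how muscle at ZT6 differed when nobiletin was added to the high-fat diet. Of the 50 members, 48 were higher in ZT6_HF.NOB than in ZT6_HF, against 50.6% of all genes tested, and 40 were at least 1.5-fold higher, against 20.9% of all genes. The median log2 difference was 0.70 for the members, 0.00 for all genes tested and 0.03 for 3564 abundant protein-coding genes (mean of at least 1000). For 45 members ZT6_HF.NOB was the highest of all 6 libraries, and member reads made up 0.561% of its reads against 0.386% to 0.433% elsewhere.

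After the length trend was subtracted, 43 of the 50 members were still higher, against 44.8% of all genes, but 6 were at least 1.5-fold higher, against 11.2%. The median fell to 0.22, and it was 0.25 where the transcript with the longest coding sequence set the length, an alternative chosen after seeing the data. Over all genes the subtraction moved the share of 1.5-fold differences that were higher from 48.3% to 34.5%. Across the members themselves the fold fell with length with a Spearman rho of -0.38 (n = 50 genes of the same libraries, a description).

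All 7 alpha subunits, which form the outer rings and gate of the barrel, were higher in ZT6_HF.NOB, with a median log2 difference of 0.82. Psma7 had the highest fold of them, with values of 2326 in ZT6_RD, 2069 in ZT6_HF, 4175 in ZT6_HF.NOB, 2641 in ZT18_RD, 2212 in ZT18_HF and 2213 in ZT18_HF.NOB, a log2 difference of 1.01 (0.93 to 1.09) at ZT6. Psma1 had the lowest, with 1731 in ZT6_RD, 1866 in ZT6_HF, 2867 in ZT6_HF.NOB, 1774 in ZT18_RD, 2031 in ZT18_HF and 1868 in ZT18_HF.NOB, a log2 difference of 0.62 (0.53 to 0.71). For both genes 1 library was high and the other 5 lay close together. With the length trend subtracted, Psma2 came highest at 0.75, Psma7 was at 0.42, and Psma1 dropped to -0.05 and Psma4 to -0.01, so that 5 of the 7 stayed higher.

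The 7 constitutive beta subunits had a median of 0.85, and the 3 that cut proteins had similar folds. Psmb5, the chymotrypsin-like site, had values of 2566 in ZT6_RD, 2616 in ZT6_HF, 4602 in ZT6_HF.NOB, 2550 in ZT18_RD, 2710 in ZT18_HF and 2655 in ZT18_HF.NOB. Psmb6, the caspase-like site, was at 3169 in ZT6_RD, 2980 in ZT6_HF, 5373 in ZT6_HF.NOB, 3007 in ZT18_RD, 3008 in ZT18_HF and 3078 in ZT18_HF.NOB. Psmb7, the trypsin-like site, was at 4546 in ZT6_RD, 4081 in ZT6_HF, 6735 in ZT6_HF.NOB, 4168 in ZT18_RD, 4025 in ZT18_HF and 4217 in ZT18_HF.NOB. Only ZT6_HF.NOB left the narrow range of the other libraries, with log2 differences to ZT6_HF of 0.81 for Psmb5, 0.85 for Psmb6 and 0.72 for Psmb7. These became 0.00, 0.07 and 0.53 with the length trend subtracted, and Psmb7 became 0.13 where its coding transcript set the length. Psmb1, a structural subunit, had the largest fold of the ring before and after subtraction (0.99 and 0.59), and Psmb2 the smallest (0.66 and -0.15). In values, Psmb1 went from 2507 in ZT6_HF to 4996 in ZT6_HF.NOB, with 2701 in ZT6_RD, 2780 in ZT18_RD, 2636 in ZT18_HF and 2664 in ZT18_HF.NOB, and Psmb2 from 1378 to 2182, with 1392 in ZT6_RD, 1368 in ZT18_RD, 1384 in ZT18_HF and 1328 in ZT18_HF.NOB.

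The 6 ATPases that unfold substrates at the base of the cap were all higher, with a median of 0.72 and of 0.30 with the length trend subtracted. Psmc2 had the highest fold on both scales (0.82 and 0.80), with values of 3551 in ZT6_RD, 3132 in ZT6_HF, 5536 in ZT6_HF.NOB, 3939 in ZT18_RD, 3375 in ZT18_HF and 3435 in ZT18_HF.NOB. Psmc6 had the lowest fold (0.61), with 2999 in ZT6_RD, 2882 in ZT6_HF, 4385 in ZT6_HF.NOB, 3020 in ZT18_RD, 3009 in ZT18_HF and 2944 in ZT18_HF.NOB, and Psmc5 the lowest after subtraction (0.15), with 3379 in ZT6_RD, 3126 in ZT6_HF, 5232 in ZT6_HF.NOB, 3453 in ZT18_RD, 3176 in ZT18_HF and 3156 in ZT18_HF.NOB. All 6 kept their direction on both scales.

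The 11 other cap subunits were less uniform, with 10 higher and a median of 0.64, which became 0.18 with the length trend subtracted. Psmd4, a ubiquitin receptor, had the highest fold on both scales, 0.92 and 0.57, with values of 4557 in ZT6_RD, 4052 in ZT6_HF, 7645 in ZT6_HF.NOB, 5537 in ZT18_RD, 4266 in ZT18_HF and 4665 in ZT18_HF.NOB. Psmd1, the largest scaffold of the cap, went the other way, with 6065 in ZT6_RD, 5539 in ZT6_HF, 5154 in ZT6_HF.NOB, 6454 in ZT18_RD, 5599 in ZT18_HF and 6153 in ZT18_HF.NOB, a log2 difference of -0.10 (-0.16 to -0.04) and of -0.20 after subtraction. Psmd1 was lowest in the library in which most members were highest. Psmd2, the other large scaffold, was at 0.19 and 0.02, and Psmd11, a lid subunit, at 0.26 and 0.10. The gene of Psmd1 overlaps Htr2b on the other strand and the gene model Gm21972 on its own, and whether reads were assigned by strand is not stated by the labels or the study.

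The summed value of the 14 alpha and constitutive beta subunits was 33907 in ZT6_HF and 60218 in ZT6_HF.NOB (77.6% higher), and that of the 17 cap subunits was 64419 and 96831 (50.3% higher). Cap reads therefore came to 161% of core reads in ZT6_HF.NOB and to 190% to 213% in the other libraries. Core transcripts were the shorter ones (median 1239 bases for the alpha and 1183 bases for the beta ring), and the part of length in this ratio was not tested.

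The 3 regulators outside the immunoproteasome showed a median of 0.02, none reaching a 1.5-fold difference upwards. Psme4, which caps the core in place of the 19S cap and has the longest transcript of the set (6491 bases), had values of 11113 in ZT6_RD, 11239 in ZT6_HF, 8039 in ZT6_HF.NOB, 11744 in ZT18_RD, 10701 in ZT18_HF and 11928 in ZT18_HF.NOB, a log2 difference of -0.48 (-0.53 to -0.44) that became 0.06 with the length trend subtracted. Psme3, the nuclear activator, was at 1596 in ZT6_RD, 1610 in ZT6_HF, 1759 in ZT6_HF.NOB, 1754 in ZT18_RD, 1625 in ZT18_HF and 1656 in ZT18_HF.NOB, and Psmf1, an inhibitor of the core in vitro, at 426 in ZT6_RD, 457 in ZT6_HF, 464 in ZT6_HF.NOB, 449 in ZT18_RD, 412 in ZT18_HF and 395 in ZT18_HF.NOB. Their log2 differences were 0.13 (0.02 to 0.23) and 0.02 (-0.18 to 0.23).

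The 7 assembly chaperones had a median of 0.60 and of 0.25 with the length trend subtracted. Psmg3 and Psmg4, which pair to order the alpha ring, had the highest folds (1.01 each) from few reads, with 181 and 152 reads in ZT6_HF.NOB and 120 and 100 in ZT6_HF. Psmg4 was at 129 in ZT6_RD, 99.8 in ZT6_HF, 203 in ZT6_HF.NOB, 127 in ZT18_RD, 130 in ZT18_HF and 105 in ZT18_HF.NOB. Psmg3 was at 131 in ZT6_RD, 120 in ZT6_HF, 241 in ZT6_HF.NOB, 127 in ZT18_RD, 133 in ZT18_HF and 152 in ZT18_HF.NOB, and its fold after subtraction (0.73) was the largest of the chaperones, although a longer gene model, Gm26938, overlaps it on the same strand. Psmd5, a chaperone of the base with a long transcript (4397 bases), had the smallest fold (0.42) but 0.57 after subtraction, with 630 in ZT6_RD, 518 in ZT6_HF, 695 in ZT6_HF.NOB, 607 in ZT18_RD, 583 in ZT18_HF and 557 in ZT18_HF.NOB. Psmg1, the partner of Psmg2, was lowest after subtraction at -0.31, with 194 in ZT6_RD, 206 in ZT6_HF, 287 in ZT6_HF.NOB, 203 in ZT18_RD, 190 in ZT18_HF and 184 in ZT18_HF.NOB.

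**Figure D2:**
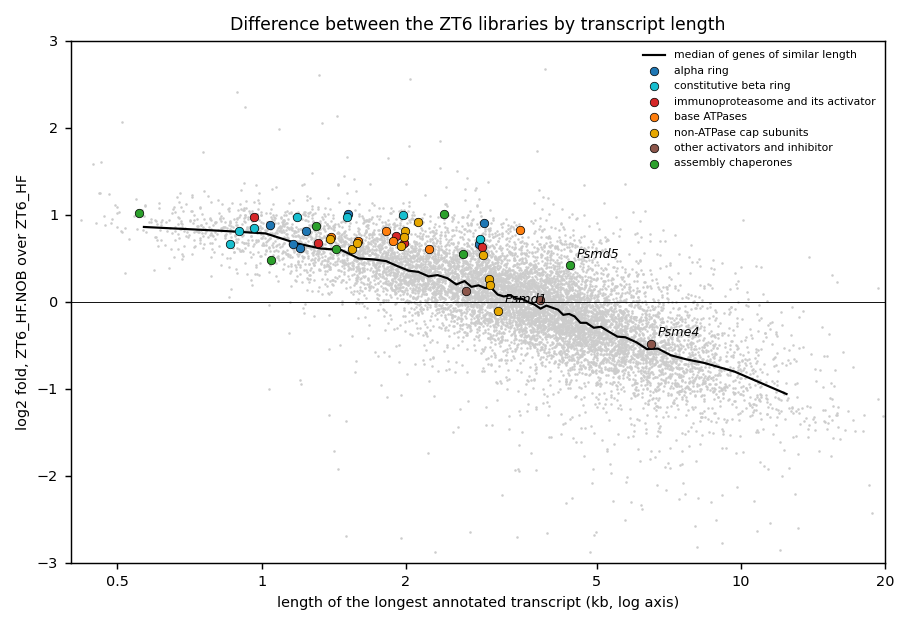
The horizontal axis is the length of the longest annotated transcript in kb on a log axis, and the vertical axis is the log2 fold of ZT6_HF.NOB over ZT6_HF. Grey points are other protein-coding genes (mean 100 or more), coloured points are the 46 members with a mean of at least 50, and the line is the median of genes of similar length. Most members lie above 0 and on or above the line, and Psme4 at 6491 bases lies below 0 and near the line.

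Outside the symbol rule, 15 of 16 listed proteasome parts and partners were found, 11 of them higher in ZT6_HF.NOB and 4 by at least 1.5-fold (median 0.17), beside the 50.6% and 20.9% of all genes given above. These 4 were Sem1 (0.98), the smallest cap subunit, Pomp (0.82), the chaperone that completes the beta ring, Akirin2 (0.66), which carries proteasomes into the nucleus, and Adrm1 (0.63), a ubiquitin receptor. Sem1, Pomp and Adrm1 stayed at 0.69, 0.90 and 0.72 with the length trend subtracted, whereas Akirin2 was at 0.07. Ecpas, a scaffold with a transcript of 7045 bases, was at -0.47 and, after subtraction, at 0.15.

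Of the listed factors that control proteasome genes, 6 of 10 were higher, beside 50.6% of all genes, with a median of 0.01. With the length trend subtracted, 8 of 10 were higher, beside 44.8% of all genes, with a median of 0.11. Nfe2l1, the factor that replenishes proteasomes when they are inhibited, was at 34229 in ZT6_RD, 37530 in ZT6_HF, 28727 in ZT6_HF.NOB, 32344 in ZT18_RD, 39501 in ZT18_HF and 38911 in ZT18_HF.NOB, so it was lowest where most subunits were highest. Its log2 difference of -0.39 was -0.14 with the length trend subtracted.

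Against RD at ZT6 the picture was close, as the comparison shares the library ZT6_HF.NOB. Of the members, 46 were higher, against 48.6% of all genes, and 28 by at least 1.5-fold, against 21.8%, with a median of 0.64 and of 0.18 with the length trend subtracted. After subtraction 37 members were higher, against 45.2% of all genes. As measured, Psmb8 (1.26), Psmg2 (0.98) and Psma5 (0.97) were highest, and Psme4 (-0.47), Psmd1 (-0.23) and Psmd2 (-0.01) lowest. Psma5, an alpha subunit, had values of 1294 in ZT6_RD, 1443 in ZT6_HF, 2542 in ZT6_HF.NOB, 1255 in ZT18_RD, 1356 in ZT18_HF and 1285 in ZT18_HF.NOB. Psmg2 had 398 in ZT6_RD, 429 in ZT6_HF, 783 in ZT6_HF.NOB, 463 in ZT18_RD, 420 in ZT18_HF and 432 in ZT18_HF.NOB.

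At ZT18 the difference between HF.NOB and HF was small. Of the 50 members, 28 were higher in ZT18_HF.NOB than in ZT18_HF, against 49.9% of all genes, with a median of 0.02, and 0 were at least 1.5-fold higher. The core subunits were within 0.12 of 0 on the log2 scale, from -0.12 for Psma1 to 0.11 for Psma6. Cap subunits other than the ATPases were slightly higher for 10 of 11 genes (median 0.13) beside 66.1% of abundant genes (median 0.06), and 9 to 11 of them were higher under every scaling, pseudocount and length setting tried. Psmd8 led with 0.25 (0.19 to 0.30), followed by the chaperone Psmg3 (0.19, -0.16 to 0.55) and the lid subunit Psmd6 (0.17, 0.10 to 0.24). Psmd6 had values of 3614 in ZT6_RD, 3212 in ZT6_HF, 5306 in ZT6_HF.NOB, 3629 in ZT18_RD, 3150 in ZT18_HF and 3540 in ZT18_HF.NOB, the HF libraries being the lowest. Psmc3ip (-0.76) and Psme2b (-0.74) had the lowest folds of those that reads allowed, with Psmc3ip at 46.7 in ZT6_RD, 35.9 in ZT6_HF, 56.0 in ZT6_HF.NOB, 52.1 in ZT18_RD, 46.2 in ZT18_HF and 26.8 in ZT18_HF.NOB.

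The immunoproteasome genes differed in opposite directions at the times, and this difference between times was not tested. At ZT6, 5 of 5 were at least 1.5-fold higher in HF.NOB than in HF (median 0.68), against 20.9% of all genes. With the length trend subtracted 5 of 5 were higher, against 44.8% of all genes, and 0 reached 1.5-fold (median 0.32). At ZT18, 5 of 5 were lower in HF.NOB (median -0.18), against 49.3% of all genes, and 4 to 5 were lower over the settings tried. Of the induced beta subunits, only Psmb8 and Psmb9 were lower beyond counting error, and Psme1 and Psme2 differed little. Psmb8 was at 159 in ZT6_RD, 227 in ZT6_HF, 383 in ZT6_HF.NOB, 170 in ZT18_RD, 233 in ZT18_HF and 157 in ZT18_HF.NOB, a log2 difference at ZT18 of -0.57 (-0.88 to -0.27). Psmb9 was at 119 in ZT6_RD, 126 in ZT6_HF, 195 in ZT6_HF.NOB, 119 in ZT18_RD, 131 in ZT18_HF and 87.0 in ZT18_HF.NOB, a difference of -0.58 (-0.999 to -0.18). Psmb10 was at 280 in ZT6_RD, 320 in ZT6_HF, 513 in ZT6_HF.NOB, 267 in ZT18_RD, 300 in ZT18_HF and 265 in ZT18_HF.NOB, and its difference of -0.18 (-0.43 to 0.07) was within counting error. In all 3 genes ZT6_HF.NOB was the highest. ZT18_HF.NOB was furthest below the RD libraries for Psmb9 (87.0 against 119 and 119). For Psmb8 (157 against 159 in ZT6_RD) and Psmb10 (265 against 267 in ZT18_RD) it was nearly level with 1 of them.

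Psme1 and Psme2, which form the interferon-induced activator ring, differed little at ZT18. Psme1 was at 666 in ZT6_RD, 711 in ZT6_HF, 1131 in ZT6_HF.NOB, 661 in ZT18_RD, 673 in ZT18_HF and 666 in ZT18_HF.NOB. Psme2 was at 550 in ZT6_RD, 535 in ZT6_HF, 1051 in ZT6_HF.NOB, 453 in ZT18_RD, 529 in ZT18_HF and 516 in ZT18_HF.NOB, and reads of its near copy Psme2b (20.96 to 40.6) may be split between them. Their differences at ZT18 were -0.02 and -0.03. Tap1, which overlaps the start of Psmb9 on the other strand, was at -0.47.

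Ratios within a library do not depend on its scaling, but they were not adjusted for transcript length. Psmb8 reads came to 6.19% of Psmb5 reads in ZT6_RD (5.10 to 7.45), 8.66% in ZT6_HF (7.53 to 9.92), 8.32% in ZT6_HF.NOB (7.35 to 9.38), 6.66% in ZT18_RD (5.61 to 7.86), 8.61% in ZT18_HF (7.43 to 9.92) and 5.91% in ZT18_HF.NOB (5.02 to 6.92). For the 3 induced over the 3 constitutive subunits together the ratio was 5.43% and 5.71% in the RD libraries, 6.95% and 6.81% in the HF libraries, and 6.53% at ZT6 and 5.11% at ZT18 in HF.NOB. Both HF libraries thus lay above both RD libraries, and the HF.NOB libraries fell on either side.

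Between HF.NOB and HF, markers of other cells differed in the same direction as these ratios at ZT18 but, as measured, not at ZT6. At ZT18 the leukocyte list was lower in HF.NOB than in HF for 16 of 16 genes, against 49.3% of all genes (median -0.57), with Ptprc at -1.12 and Cd74 at -0.58, and its summed value was 6472 against 10024. The list of MHC class I and interferon genes was lower for 14 of 15 (median -0.36), including B2m (-0.38) and Irf7 (-0.66). Other lists were lower too: adipocytes 6 of 6 (median -0.41), red blood cells 5 of 5 (-0.35), endothelium 4 of 4 (-0.11) and liver 6 of 6 (-6.39). Fibroblast markers were lower for 3 of 4, and skeletal muscle markers were higher for 7 of 10. ZT18_HF was the library with liver genes. At ZT6, HF.NOB exceeded HF for 11 of 16 genes of the leukocyte list (median 0.29) and 12 of 15 of the interferon list (median 0.39), beside 50.6% of all genes. Their summed values were 12533 against 10395 and 20270 against 15132, while the ratio of induced to constitutive subunits was 6.53% against 6.95%. With the length trend subtracted, the medians of the lists at ZT6 were -0.09 and 0.14. The ratio of induced to constitutive subunits has no such adjustment, so the directions at ZT6 cannot be compared on that scale. Median transcript length was 1907 bases for the immunoproteasome and its activator and 1183 bases for the constitutive beta ring. In whole muscle, fewer leukocytes and less immunoproteasome RNA per cell cannot be told apart, and the part of the cell mixture in the result was not tested.

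**Figure D3:**
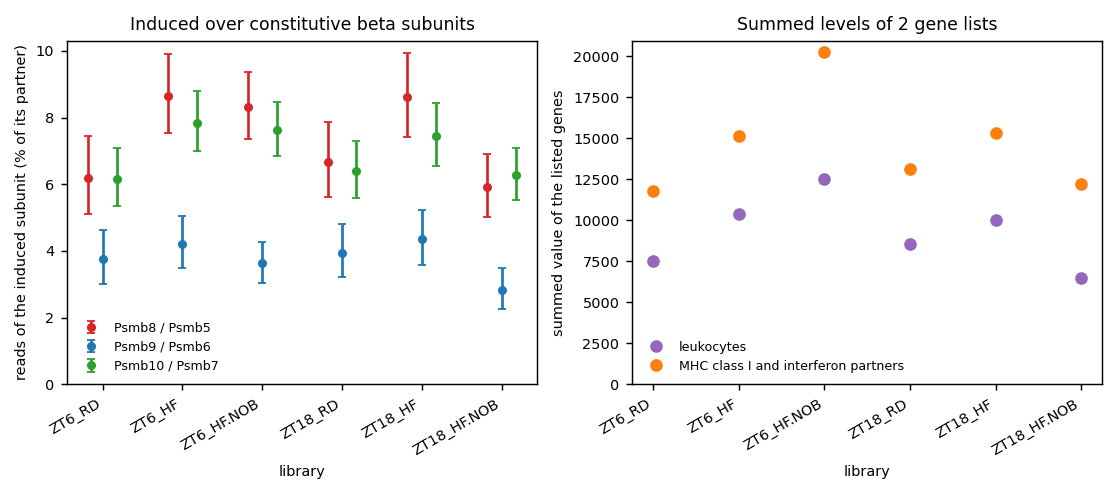
Left, reads of each interferon-induced beta subunit as a percentage of reads of the constitutive subunit it replaces, by library, with 95% exact counting intervals. Right, the summed deposited value of the 16 leukocyte markers and of the 15 MHC class I and interferon genes in the same libraries. Psmb8 over Psmb5 is highest in the HF libraries and in ZT6_HF.NOB, and ZT18_HF.NOB has the lowest leukocyte sum, 6472.

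The high-fat diet itself was examined at each time, with separate libraries for the ZT6 and ZT18 comparisons. Of the 50 members, 14 were higher in HF at ZT6, against 48.1% of all genes, and 20 at ZT18, against 48.0%, with medians of -0.09 and -0.06. Of abundant protein-coding genes 37.2% and 37.5% were higher. Of the cap, 16 of 17 subunits were lower in HF at both times, as were 51.0% of abundant protein-coding genes and 31.9% of all genes tested, and the remaining one, the deubiquitinase Psmd14, was at -0.08 and 0.07. Of the 14 core subunits 7 were lower at both times. The medians of the cap were -0.15 at ZT6 and -0.15 at ZT18 beside -0.05 and -0.07 for abundant genes. Under every scaling, pseudocount and length setting tried, 15 to 17 cap subunits were lower at ZT6 and 15 to 16 at ZT18.

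Psmd8 stood furthest out, with 7616 in ZT6_RD, 6069 in ZT6_HF, 10138 in ZT6_HF.NOB, 7823 in ZT18_RD, 5583 in ZT18_HF and 6621 in ZT18_HF.NOB. Both HF libraries were lower than all others, with log2 differences to RD of -0.33 (-0.38 to -0.28) at ZT6 and -0.49 (-0.54 to -0.43) at ZT18. Psmd4, whose values are given above, was at -0.17 (-0.24 to -0.10) and -0.38 (-0.44 to -0.31), and its HF libraries were likewise the lowest. Psmc3 (-0.23 and -0.15) and Psmc2 (-0.18 and -0.22), both ATPases of the base, were lower by similar amounts.

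Summed over the 17 subunits, the cap was at 72115 in ZT6_RD and 64419 in ZT6_HF, and at 76058 in ZT18_RD and 66511 in ZT18_HF, a change of -10.7% and -12.6%. The core sum dropped by less, from 35753 to 33907 at ZT6 and from 35742 to 34338 at ZT18. Cap over core reads accordingly stood at 202% and 213% in RD, 190% and 194% in HF and 205% in ZT18_HF.NOB.

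The immunoproteasome stood on the other side. Psmb8 was higher in HF by 0.51 (0.19 to 0.85) at ZT6 and 0.46 (0.15 to 0.77) at ZT18, and Psmb9, Psmb10 and Psme1 were higher at both times within counting error (0.08 and 0.14, 0.19 and 0.17, 0.09 and 0.03). Psme2 was at -0.04 (-0.23 to 0.15) and 0.22 (0.03 to 0.42). Leukocyte markers were higher in HF for 12 of 16 genes at ZT6 and 11 of 16 at ZT18 (medians 0.32 and 0.26). The interferon list was higher for 14 and 10 of 15 genes (medians 0.33 and 0.08), and adipocyte markers for 5 of 6 at both times. Of all genes tested, 48.1% were higher in HF at ZT6 and 48.0% at ZT18. The liver genes seen in ZT18_HF belong to only 1 of these comparisons. The part of these cells in the difference was not tested.

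Other members moved little with the diet. Among the core, Psma1 (0.11 and 0.19) and Psma5 (0.16 and 0.11) were higher in HF at both times, and Psma6 (-0.23 and -0.16), Psma7 (-0.17 and -0.26) and Psmb3 (-0.15 and -0.22) were lower. Psme2b (-0.59 at ZT6 and 0.75 at ZT18) and Psmc3ip (-0.37 and -0.17) rested on 21 to 46 reads per library, and Psmg4 (-0.37 and 0.03) on 97 to 152. Psmd10 (-0.09 and 0.26), a chaperone of the base, had values of 248 in ZT6_RD, 233 in ZT6_HF, 353 in ZT6_HF.NOB, 179 in ZT18_RD, 214 in ZT18_HF and 235 in ZT18_HF.NOB.

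**Figure D4:**
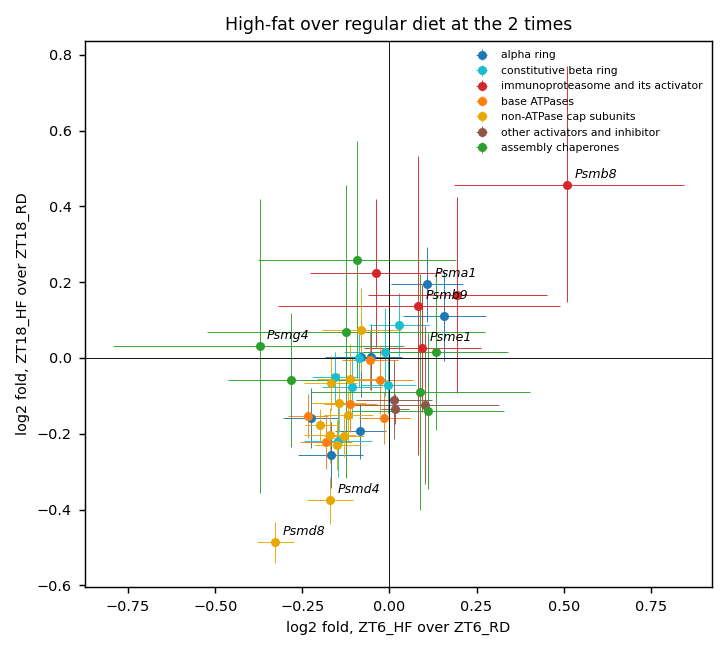
Each point is 1 of the 46 members with a mean of at least 50, with the log2 fold of HF over RD at ZT6 on the horizontal axis and at ZT18 on the vertical axis, coloured by role, and lines give 95% exact counting intervals. Cap subunits gather in the lower left with Psmd8 (-0.33 and -0.49) and Psmd4 (-0.17 and -0.38) furthest out, and Psmb8 (0.51 and 0.46) stands alone in the upper right.

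Genes that supply the proteasome with substrates were read from the same libraries. Of 20 listed ubiquitin genes and muscle ubiquitin ligases, 16 were lower in HF at ZT6 and 14 at ZT18 (medians -0.16 and -0.20), against 50.7% and 51.2% of all genes and 62.8% and 62.5% of abundant protein-coding genes. Fbxo32, a ligase of muscle atrophy, was at 18816 in ZT6_RD, 11264 in ZT6_HF, 14905 in ZT6_HF.NOB, 26823 in ZT18_RD, 15534 in ZT18_HF and 17481 in ZT18_HF.NOB, and Trim63, its counterpart at the sarcomere, at 8111, 6270 and 11333 in the same order at ZT6 and 13238, 8506 and 8469 at ZT18. Both were highest in ZT18_RD and lower in HF at each time, by 0.74 and 0.79 for Fbxo32 and by 0.37 and 0.64 for Trim63 on the log2 scale. Ubb (-0.28 and -0.63), which encodes ubiquitin, was lower as well, and so was Ddi2 (-0.34 and -0.37), the protease that activates Nfe2l1, whereas Nfe2l1 itself was at 0.13 and 0.29.

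HF.NOB against RD at ZT18 shares a library with each of the other ZT18 comparisons. Of the members 16 were higher, against 50.4% of all genes, with a median of -0.05. Highest were Psmd10 (0.39), Psmg3 (0.26) and Psme2 (0.19), and lowest, where reads allowed a fold, were Psmc3ip (-0.93), Psmb9 (-0.44) and Psmg4 (-0.27). For 15 of the 17 cap subunits HF.NOB was lower than RD, with a median of -0.07. Lower too were 9833 of the 20311 genes tested and 49.5% of abundant protein-coding genes. The summed cap value was 76058 in ZT18_RD, 66511 in ZT18_HF and 71187 in ZT18_HF.NOB.

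Time of day was compared within each diet. In RD 30 members were higher at ZT18, against 47.1% of all genes, with a median of 0.02, and in HF 35 were higher, against 49.6%, with a median of 0.04. Psmb11 had values of 9.34 in ZT6_RD, 9.98 in ZT6_HF, 18.7 in ZT6_HF.NOB, 14.7 in ZT18_RD, 15.8 in ZT18_HF and 15.3 in ZT18_HF.NOB, and Psme2b of 32.0, 20.96, 34.7, 23.8, 40.6 and 23.9 in the same order. In RD the largest differences were those of Psmb11 (0.60, from few reads), Psmd4 (0.28), Psmg2 (0.22), Psmd10 (-0.47), Psme2b (-0.42) and Psme2 (-0.28). In HF they were Psme2b (0.92), Psmb11 (0.61), Psmg4 (0.37), Psmf1 (-0.15), Psma3 (-0.13), an alpha subunit, and Psmd8 (-0.12). Psma3 had values of 3595 in ZT6_RD, 3392 in ZT6_HF, 5352 in ZT6_HF.NOB, 3538 in ZT18_RD, 3096 in ZT18_HF and 3309 in ZT18_HF.NOB.

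In HF.NOB 3 members were higher at ZT18, against 48.5% of all genes, and 34 were at least 1.5-fold lower, against 21.4%, with a median of -0.67 that became -0.24 with the length trend subtracted. As measured, all 14 core subunits were at least 1.5-fold lower at ZT18. With the length trend subtracted, 9 of the 14 were lower and 1 reached 1.5-fold (median -0.31). Psmb8 (-1.28), Psmb9 (-1.15) and Psmc3ip (-1.04) were lowest as measured, while Psme4 (0.57), Psmd1 (0.26) and Psmd2 (0.04) were higher. This comparison contains ZT6_HF.NOB, and no time difference of this size was present in RD or HF.

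A test was possible only by fitting diet and time as additive terms over all libraries, with the times standing in for replicates of a diet. With edgeR's quasi-likelihood test and Benjamini-Hochberg adjustment over 20311 genes, 0 of 50 members were called at an adjusted p under 0.05 for HF against RD (0% of all genes), for HF.NOB against HF (0% of all genes) and for time of day (0.00492% of all genes). At an unadjusted p under 0.05 the members numbered 0, 2 and 0, against 3.98%, 2.95% and 3.69% of all genes, and DESeq2 called 0 members in each. The smallest adjusted p of a member was 0.836, for HF.NOB against HF.

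Leaving out ZT6_HF.NOB gave a few calls for the diet, near the share of all genes called and so no trait of the members. HF against RD then called 2 members, both lower and both of the cap, against 2.89% of all genes called lower: Psmd8 at -0.41 (edgeR, adjusted p = 0.00307) and Psmd4 at -0.27 (edgeR, adjusted p = 0.048). At an unadjusted p under 0.05 there were 12 members, 11 lower and 1 higher, against 17.6% of all genes in either direction. Psmb8 was at 0.48 (edgeR, adjusted p = 0.051), and with both HF.NOB libraries left out it was called (adjusted p = 0.0488, against 3.43% of all genes called higher). In the fit without ZT6_HF.NOB alone, Fbxo32 (-0.76), Trim63 (-0.51), Ubb, Fbxo31, Nfyb and Ddi2 (-0.35) were lower in HF. Irf7, Ifit3, Isg15, B2m and H2-D1 were higher. These are single genes named from the lists and do not stand for the whole lists. Leaving out ZT18_HF.NOB made HF.NOB rest on ZT6_HF.NOB alone, so only effect sizes against HF are given. The member median was then 0.70, beside 0.003 for all genes, and Psme4 was at -0.45. This fit was not adjusted for transcript length. With the length trend subtracted, the difference between the ZT6 libraries had a member median of 0.22, and that of Psme4 did not stay negative. With 2 times per diet the residual spread of these fits comes from 1 or 2 degrees of freedom.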

How the data were processed

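Calf muscle RNA was sequenced in 6 libraries, 1 per diet and time. The authors aligned reads to mm10 with TopHat2 2.0.12 and used Cufflinks 2.2.1 for gene abundance. The counting tool and strand setting behind the deposited table were not stated. The deposited table holds a signal per gene, read counts that the authors scaled by 1 factor per library. Dividing by the value of 1 read (0.956 to 1.33) gave whole reads for 100% of values (tolerance 0.001). Identifiers were joined to GENCODE M21 (99.4% matched).

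Genes with a mean of at least 1 were kept, and folds are log2 ratios of value + 1, which understate changes of low genes. The length trend was the median fold in 50 bins of length from 11691 genes with a mean of at least 50, by the longest annotated transcript. Recovered reads were fitted with edgeR 4.0.16 (diet + time, 2 residual degrees of freedom, adjusted p under 0.05) in R 4.3.3, with DESeq2 1.42.0 as an alternative. The edgeR fit was checked on drawn counts with known folds, and the length subtraction on made-up folds, but DESeq2 was not checked. The drawn counts varied less than the main fit found (common dispersion 0.0372), so they do not show what that fit could detect. Nothing in the labels says that libraries came from separate groups of animals, so p-values measure only the spread between these libraries. Values in every library are given for the catalytic pairs, the activators, the extremes of each role in HF.NOB against HF at ZT6 and the 3 highest and lowest members of each other comparison. The members and lists were chosen with earlier results of these data known. Promoters came from RefSeq (GRCm38.p6), 42 of 50 members matched, 3 of them with more than 1 window, and Psma8, Psmb1, Psmb2, Psmb7, Psmc3, Psmd3, Psmd7 and Psmg2 were not matched. Alternatives were other scalings, pseudocounts, filters, lengths and GC content, and left-out libraries.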

Additional observations from a re-analysis of the deposited data

Results flagged for a closer look

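Psmc3ip and Psme2b differed by more than 1.5-fold in opposite directions at ZT6 and ZT18, each from 21 to 46 reads per library. For HF.NOB against HF the log2 fold of Psmc3ip was 0.63 at ZT6 and -0.76 at ZT18, and that of Psme2b was 0.70 and -0.74. For HF against RD, Psme2b was at -0.59 at ZT6 and 0.75 at ZT18. These differences between times were not tested, since each rests on 1 library per condition.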

How the results depend on the processing

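Over 9 comparisons of libraries and 13 alternatives each, 105 of 117 medians over the members stayed within a limit, and 12 moved further, all from length adjustments of comparisons with ZT6_HF.NOB. The limit was the median half-width of the counting interval of a single member, 0.080 to 0.094 by comparison. Without ZT6_HF.NOB every median was itself smaller than its limit, so staying within it shows little there. For HF against RD the medians over the alternatives ran from -0.114 to -0.040 at ZT6 and from -0.118 to -0.029 at ZT18. With the length trend subtracted by longest transcript, by union of exons, together with GC content, and by coding transcript (chosen after seeing the data), the median for HF.NOB against HF at ZT6 was 0.22, 0.33, 0.28 and 0.25, for HF.NOB against RD at ZT6 0.18, 0.26, 0.22 and 0.19, and for ZT18 against ZT6 in HF.NOB -0.24, -0.30, -0.30 and -0.17. The sign of 1 median turned, HF.NOB against HF at ZT18, which was -0.03 with mitochondrially encoded and the most abundant genes left out of the total. Scalings moved the median of all genes by at most 0.048.

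Single members turned in HF.NOB against HF at ZT6. By longest transcript Psmb2 was at -0.15, Psma1 at -0.052, Psma4 at -0.0070 and Psme2b at -0.11. By union of exons Psmb2 was at -0.075, Psmd10 at -0.068 and Psme2b at -0.066. With GC content Psmb2 was at -0.074 and Psme2b at -0.028, and by coding transcript Psmb2 was at -0.059 and Psme2b at -0.021.

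With 1 library left out in turn, edgeR called 0 to 3 members for HF against RD, 0 to 41 for HF.NOB against HF and 0 for time of day, and 3 for HF against RD without both HF.NOB libraries. The 41 came only from the fit without ZT18_HF.NOB, in which HF.NOB rests on ZT6_HF.NOB alone. Many genes outside the members were called in that fit too, and it was not adjusted for transcript length. No conclusion is therefore drawn from the 41, and only the effect sizes given above are used from that fit. The common dispersion was 0.0372 in the main fit and 0.0050 with either HF.NOB library left out. With any other library left out it was 0.052 to 0.054. The cause of these changes between fits was not tested. No paired analysis was possible because the labels give no replicate numbers to pair libraries by, and the edgeR fit of diet and time already compared the diets within each time.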
